A study of Mus musculus with 6 samples.

Results

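The DNA damage response and repair genes described here are 43 of the 54146 genes in each deposited count table, chosen by symbol and matched to the Ensembl identifiers of the tables. They fall into 5 branches: 12 genes of homologous recombination, 9 of the Fanconi anaemia pathway, 7 of checkpoint signalling, 8 of end joining and other repair, and 7 of the p53 branch. All 43 were among the 16897 genes that passed the filter on low counts, and the fewest reads counted for any of them in any library were 39.

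The series sequenced RNA from cells of the developing mouse cerebral cortex that carried extra miR-3607, a microRNA, and its title ties that microRNA to Wnt/β-catenin signalling. In the 3 libraries of the Mir group, the cells carried a plasmid with a precursor of miR-3607 as a hairpin driven by the U6 promoter. In the 3 libraries of the Scr group, the hairpin plasmid was the scrambled negative control of the same vector. Cells of both groups also received a GFP plasmid driven by the CAG promoter. Both plasmids were electroporated into the cortex in utero at E14.5 (embryonic day), and GFP-positive cells were sorted 24 hours later, at E15.5. Each library pooled the cells of 2 embryos, so p-values measure the spread between pools. No genotype or allele is given, and the labels name the strain both as ICR and as C57BL/6. The U6 promoter acts in any cell that takes up the plasmid, so the hairpin is not limited to a cell type.

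Cells repair broken DNA by several routes. Homologous recombination copies the lost sequence from the sister chromatid, and the Fanconi anaemia pathway unhooks crosslinks between the strands and protects stalled replication forks, so that both act mainly while DNA is being copied or has just been copied. The checkpoint kinases Atm and Atr signal breaks and exposed single strands, end joining reseals breaks without a template at any stage of the cell cycle, and p53 turns such signals into arrest or cell death. Progenitors of the embryonic cortex divide quickly and depend on these routes, and loss of several of these genes causes small brains or the death of newly made neurons.

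Counts in genes were 12724511 to 16684038 per library. Markers of the dorsal cortex, of radial glia and of intermediate progenitors were present in every library, and their summed levels were 677 to 867 against 920 to 1221 CPM, 1214 to 1811 against 1547 to 2292 CPM, and 1118 to 1754 against 1798 to 2506 CPM in Scr against Mir. CPM are the counts of a gene scaled to 1000000 reads in genes. Of the 15 markers in these lists, all had a higher mean in Mir. The 5 excitatory neuron markers summed to 3888 to 4488 CPM in Scr and to 3352 to 3640 CPM in Mir, with 2 of 5 higher in Mir. Markers of other cell types had a lower mean in Mir for every gene matched: 6 inhibitory neuron markers summed to 239 to 910 against 108 to 301 CPM, 6 endothelial markers to 9.15 to 186 against 0 to 28.2 CPM, 6 microglial markers to 17.1 to 65.8 against 10.1 to 48.9 CPM, and 5 red blood cell genes to 204 to 800 against 1.60 to 536 CPM. All 6 endothelial markers were at 0 in Mir replicate 1 and 4 of them in Mir replicate 2, and 4 microglial markers were at 0 in Mir replicate 1. Scr replicate 2 had the highest inhibitory neuron, endothelial and red blood cell sums of the 6 libraries and the lowest sums of dorsal cortex, radial glia and intermediate progenitor markers.

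That library also stood apart in the repair genes. Scr replicate 2 was the lowest of the 6 libraries for 30 of the 43 genes, while it was the lowest for 21.6% of all genes tested. Mir replicate 3 was the highest for 16 of the 43 genes, against 14.6% of all genes tested. Counts and medians, and the genes whose fold change moved most in proportion, are therefore also given without these libraries. The part of other cell types in them was not tested.

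Most of the 43 genes had a higher mean in Mir than in Scr, by small amounts, and none passed edgeR's quasi-likelihood test at an adjusted p of 0.05. The mean was higher in Mir for 35 genes and lower for 8, so that 81.4% were higher, against 48.8% of all genes tested. Fold changes, given throughout as log2 of Mir over Scr with edgeR's standard error, ran from -0.48 for Rrm2b to 0.58 for Fancd2 with a median of 0.21, beside a median of -0.01 over all genes tested. In these sorted pools, a change in the share of cells of a type and a change in RNA per cell cannot be told apart.

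Over the whole table edgeR called 1 gene, 0.00592% of those tested, and the smallest adjusted p of a repair gene was 0.212 in edgeR, for Fanca. At an unadjusted p under 0.05, edgeR placed 9 repair genes higher in Mir, where 6.57% of all genes were, and 0 lower, where 7.93% of all genes were. The 9 were Brca2, Rad54l, Rad54b, Nbn, Fanca, Fancd2, Topbp1, Xrcc1 and Parp1. The count of 9 higher was 4, 5 and 9 without Scr replicates 1, 2 and 3, in that order. It was 5, 7 and 3 without Mir replicates 1, 2 and 3. At that unadjusted p, 1 repair gene was lower without Scr replicate 2, without Scr replicate 3 and without Mir replicate 2. DESeq2, run as an alternative, called Fanca and Topbp1 higher at adjusted p of 0.034 and 0.0477, beside 1.46% of all genes called higher, and called 0 repair genes lower, beside 1.97% of all genes. Limma-voom called 0 of all genes tested. The 3 Mir libraries all lay above the 3 Scr libraries for 13 repair genes, where 9.72% of all genes did, and all lay below them for 1, Rrm2b, where 10.3% of all genes did.

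**Figure D1:**
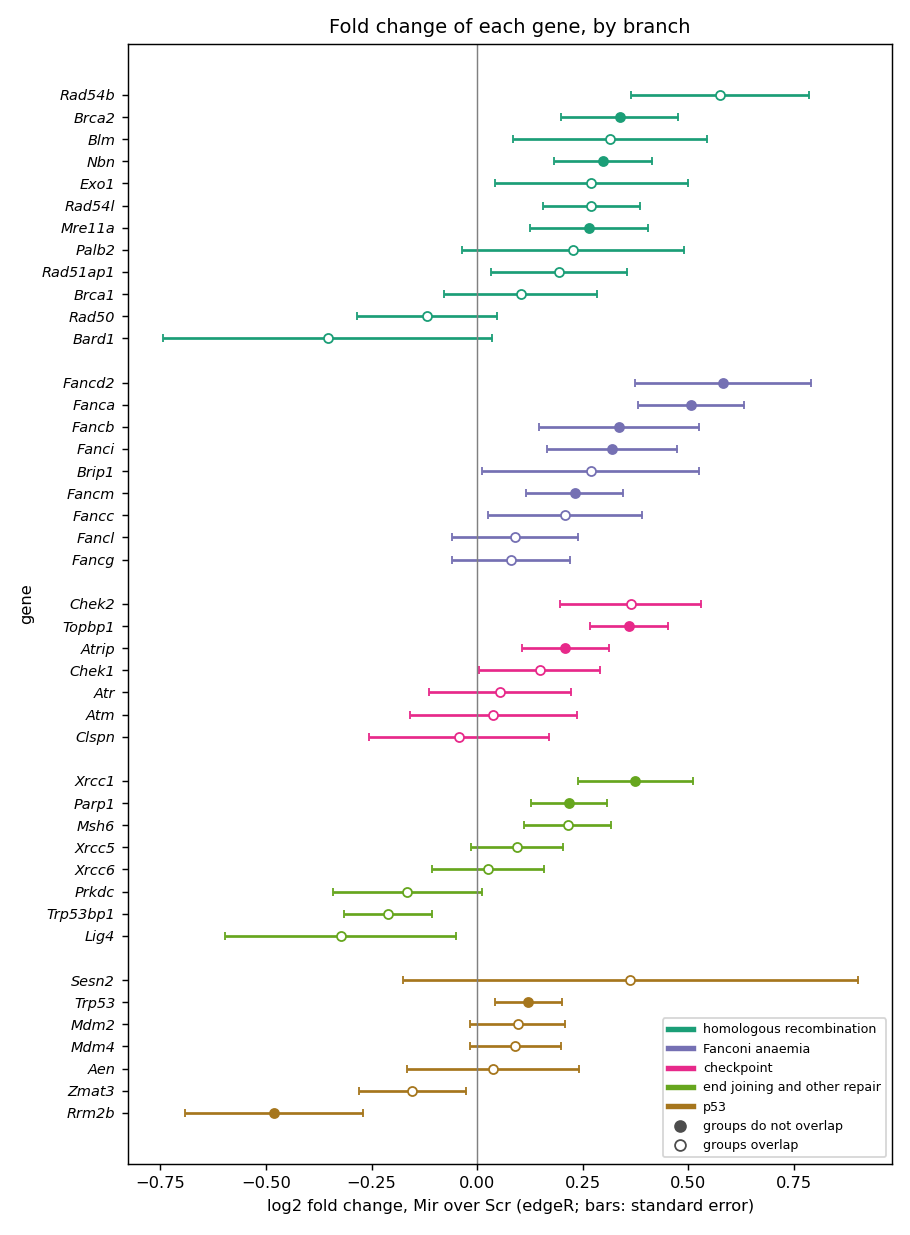
Log2 fold change of Mir over Scr for each of the 43 genes, grouped by branch; points are edgeR estimates from 3 libraries per group, bars are standard errors, and filled points mark genes whose groups do not overlap. All 9 Fanconi anaemia genes lie right of 0, while the end joining and p53 branches hold genes on both sides, from -0.48 for Rrm2b to 0.37 for Xrcc1.

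The plot of fold changes by branch shows that the branches differed in how evenly their genes were placed. The mean was higher in Mir for 10 of 12 homologous recombination genes, 9 of 9 Fanconi anaemia genes, 6 of 7 checkpoint genes, 5 of 8 genes of end joining and other repair, and 5 of 7 genes of the p53 branch. Median fold changes were 0.27, 0.27, 0.15, 0.06 and 0.09 in the same order. Branches were compared as descriptions, with no test between them.

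In the homologous recombination branch, 10 of the 12 genes had higher means in Mir, and Bard1 and Rad50 had lower ones. Brca2, which is needed to start strand exchange and lies at chr5:150522630-150570329 (GRCm38), was measured in replicates 1, 2 and 3 at 28.1, 27.9 and 36.8 CPM in Scr and, likewise in that order, at 37.6, 39.8 and 40.0 CPM in Mir. Every Mir library was above every Scr library, with Scr replicate 3 closest to them. Its fold change was 0.34 ± 0.14, with an adjusted p of 0.327 in edgeR. Brca1, its partner upstream in the same route, stood at 49.4, 30.2 and 40.2 CPM in Scr and at 46.5, 43.2 and 38.9 CPM in Mir, in replicate order as in all values that follow. The groups overlapped fully, Scr replicate 1 was the highest and Scr replicate 2 the lowest of the 6 libraries, and the fold change of 0.10 ± 0.18 turned to -0.06 without Scr replicate 2.

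Among the break sensors, Mre11a, the nuclease that starts the trimming of broken ends, stood at 32.4, 26.7 and 36.2 CPM in Scr and at 40.9, 36.3 and 37.3 CPM in Mir. The groups did not overlap, but Scr replicate 3 and Mir replicate 2 nearly met, and the fold change was 0.26 ± 0.14 (edgeR adjusted p = 0.426). Nbn, the subunit that recruits the kinase Atm to breaks, stood at 41.9, 36.3 and 44.6 CPM in Scr and at 46.5, 53.3 and 51.2 CPM in Mir. Again all Mir libraries were the higher ones, at a fold change of 0.30 ± 0.12 (edgeR adjusted p = 0.312). Rad50, which joins Mre11a and Nbn in one complex, went the other way in its mean, with a fold change of -0.12 ± 0.16.

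Rad54b, a motor protein that aids strand exchange, had the largest fold change of the branch. It stood at 36.2, 20.7 and 27.0 CPM in Scr and at 43.6, 35.5 and 45.9 CPM in Mir. Scr replicate 1 lay just above Mir replicate 2, and the fold change was 0.58 ± 0.21 (edgeR adjusted p = 0.291). Of the exon bases of Rad54b, 35.9% are shared with other genes, Fsbp on the same strand and Gm11832 on the opposite strand, so that the counts of this gene are uncertain. Rad54l, its relative, had a fold change of 0.27 ± 0.11, the helicase Blm 0.31 ± 0.23 and the resection nuclease Exo1 0.27 ± 0.23. Of the exon bases of Rad54l, 15.4% are shared with Lrrc41 on the opposite strand. Palb2, which bridges Brca1 and Brca2, was at 0.23 ± 0.26 and Rad51ap1, an accessory factor of strand exchange, at 0.19 ± 0.16. Bard1, the partner of Brca1 in a ubiquitin ligase, was the gene with the lowest level per exon length of all 43 and was at -0.35 ± 0.39.

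The Fanconi anaemia branch was the most even: all 9 genes had a higher mean in Mir, and for 5 of them the Mir libraries all lay above Scr, where 9.72% of all genes did. Fancd2 and Fanci form the pair that is tagged with ubiquitin when a fork meets a crosslink. Fancd2 (chr6:113531682-113597017) stood at 29.7, 18.8 and 29.1 CPM in Scr and at 46.4, 33.6 and 36.2 CPM in Mir. Its Mir libraries were all higher, with Mir replicate 1 farthest from Scr, and the fold change of 0.58 ± 0.21 was the largest of the 43 genes (edgeR adjusted p = 0.285). Fanci stood at 30.8, 22.7 and 29.99 CPM in Scr and at 35.0, 31.2 and 37.9 CPM in Mir. Its groups did not overlap either, though Scr replicate 1 and Mir replicate 2 were close, and its fold change was 0.32 ± 0.15 (edgeR adjusted p = 0.392). For Fanci, 16.0% of exon bases are shared with Polg.

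Fanca, Fancb, Fancc, Fancg and Fancl belong to the core complex that attaches the ubiquitin, with Fancl as its ligase. Fanca (chr8:123268300-123318576) stood at 21.8, 18.7 and 22.0 CPM in Scr and at 30.8, 29.4 and 28.6 CPM in Mir. Both groups were tight and well apart, at a fold change of 0.51 ± 0.13 (edgeR adjusted p = 0.212, DESeq2 adjusted p = 0.034), and 10.5% of its exon bases are shared with Zfp276. Over 14 alternative fits its fold change stayed between 0.43 and 0.56. Fancb stood at 14.8, 10.2 and 14.9 CPM in Scr and at 15.9, 16.5 and 18.0 CPM in Mir. All 3 Mir libraries were higher, by little over Scr replicates 1 and 3, and the fold change of 0.34 ± 0.19 (edgeR adjusted p = 0.460) ranged down to 0.12 over the alternatives. Fancc was at 0.21 ± 0.18, and Fancg and Fancl were at 0.08 ± 0.14 and 0.09 ± 0.15, with overlapping groups. Fancc and Fancl share 18.6% and 13.7% of their exon bases with other genes.

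Fancm, the translocase that anchors the core complex at DNA, stood at 27.4, 28.7 and 25.3 CPM in Scr and at 29.9, 33.0 and 32.7 CPM in Mir. The groups did not overlap and Scr replicate 2 was here the highest of Scr, at a fold change of 0.23 ± 0.12 (edgeR adjusted p = 0.406). The helicase Brip1, also a partner of Brca1, was at 0.27 ± 0.26 with overlapping groups. Without Scr replicate 2 all 9 Fanconi anaemia genes still had a higher mean in Mir, at a median of 0.17, and with Mir replicate 3 left out as well 7 of 9 did, at 0.12.

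In the checkpoint branch, the partners that bring Atr to single-stranded DNA and switch it on had larger fold changes than Atr and Atm themselves, a difference that was not tested. Topbp1, the activator of Atr, lies at chr9:103305215-103350428 and stood at 72.6, 79.1 and 83.7 CPM in Scr and at 104, 94.0 and 104 CPM in Mir. The lowest Mir library lay above the highest Scr library, and the fold change was 0.36 ± 0.09 (edgeR adjusted p = 0.214, DESeq2 adjusted p = 0.0477). Over the 14 alternative fits it stayed between 0.30 and 0.42. Atrip, which binds Atr to coated single strands, stood at 43.3, 42.4 and 46.6 CPM in Scr and at 49.9, 55.4 and 47.6 CPM in Mir. Its groups did not overlap, by a narrow margin between Scr replicate 3 and Mir replicate 3, and the fold change was 0.21 ± 0.10 (edgeR adjusted p = 0.398). Of the exon bases of Atrip, 16.0% are shared with Trex1 on the same strand.

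The kinases at the head of the signal showed overlapping groups. Atm, which answers double-strand breaks, stood at 21.0, 14.1 and 18.7 CPM in Scr and at 21.2, 18.4 and 15.7 CPM in Mir, and Mir replicate 3 lay below both Scr replicates 1 and 3. Its fold change was 0.04 ± 0.20 (edgeR adjusted p = 0.950). Atr, which answers stalled forks, stood at 40.7, 29.5 and 32.9 CPM in Scr and at 42.4, 32.6 and 32.0 CPM in Mir, with replicate 1 the highest in each group. Its fold change was 0.05 ± 0.17 (edgeR adjusted p = 0.915). Without Scr replicate 2 both turned below 0, to -0.11 for Atm and -0.05 for Atr.

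Downstream of these, Chek1, the kinase through which Atr holds back division, stood at 44.2, 34.0 and 47.8 CPM in Scr and at 46.0, 43.9 and 49.7 CPM in Mir. The groups overlapped, Scr replicate 2 was the lowest by far, and the fold change was 0.15 ± 0.14 (edgeR adjusted p = 0.674). Chek2, the kinase through which Atm acts, stood at 32.8, 26.1 and 40.0 CPM in Scr and at 46.5, 41.3 and 39.5 CPM in Mir. Only Scr replicate 3 reached into the range of Mir, by a small margin over Mir replicate 3, and the fold change was 0.36 ± 0.17 (edgeR adjusted p = 0.371). Clspn, the adaptor between Atr and Chek1, was at -0.04 ± 0.21. The branch median of 0.15 was 0.01 without Scr replicate 2.

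Among end joining and other repair genes, those of single-strand break and mismatch repair had higher means in Mir, and those of end joining lay near 0 or below it. Xrcc1, the scaffold of single-strand break repair, stood at 36.2, 35.8 and 35.8 CPM in Scr and at 39.9, 44.7 and 55.2 CPM in Mir. The Scr libraries were nearly equal and all Mir libraries were above them, with a wide spread in Mir, at a fold change of 0.37 ± 0.14 (edgeR adjusted p = 0.290). Parp1, the enzyme that senses strand breaks and recruits Xrcc1, stood at 147, 173 and 168 CPM in Scr and at 187, 193 and 188 CPM in Mir. The Mir libraries were all higher and close together, at a fold change of 0.22 ± 0.09 (edgeR adjusted p = 0.331). Msh6, a mismatch sensor, stood at 87.7, 81.2 and 86.6 CPM in Scr and at 101, 87.2 and 108 CPM in Mir. Mir replicate 2 lay within the range of Scr, and the fold change was 0.21 ± 0.10 (edgeR adjusted p = 0.390).

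Of the end joining genes proper, Xrcc5 and Xrcc6, the subunits of Ku, which caps broken ends, were at 0.09 ± 0.11 and 0.03 ± 0.13. Prkdc, the kinase that Ku recruits, was at -0.17 ± 0.18 and Lig4, the ligase that seals the ends, at -0.32 ± 0.27. Trp53bp1, which shields ends from resection and so favours end joining, was at -0.21 ± 0.10, and 15.0% of its exon bases are shared with Tubgcp4. Prkdc, Lig4 and Trp53bp1 had a negative fold change in each of the 15 fits that were run, the main fit and 14 alternatives. These fits reuse the same libraries and are not independent of one another. The branch median of 0.06 was -0.04 without Scr replicate 2.

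In the p53 branch 0 of 7 genes reached an unadjusted p under 0.05 in edgeR, where 6.57% of all genes were higher and 7.93% lower. For a list of 7 genes, 0 lies near these shares. Trp53, the gene of p53 itself (chr11:69580359-69591873), stood at 148, 144 and 142 CPM in Scr and at 152, 155 and 164 CPM in Mir. The Mir libraries were all higher, by a few percent at the closest pair, and the fold change was 0.12 ± 0.08 (edgeR adjusted p = 0.517). Mdm2, the ubiquitin ligase that destroys p53 and is itself a p53 target, stood at 193, 156 and 175 CPM in Scr and at 193, 200 and 167 CPM in Mir. The groups overlapped, with Mir replicate 3 below 2 of the Scr libraries, and the fold change was 0.10 ± 0.11 (edgeR adjusted p = 0.731). Mdm4, which holds p53 inactive, was at 0.09 ± 0.11, and it shares 15.48% of its 50-base words with its pseudogene.

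The targets through which p53 acts were mixed. Rrm2b, the p53-inducible subunit of ribonucleotide reductase, which supplies nucleotides for repair, lies at chr15:37923952-37961318 and stood at 11.5, 8.62 and 10.1 CPM in Scr and at 7.19, 8.30 and 6.18 CPM in Mir. It was the one gene of the 43 whose Mir libraries all lay below Scr, with Scr replicate 2 and Mir replicate 2 close together, and the fold change was -0.48 ± 0.21 (edgeR adjusted p = 0.350). Zmat3, an RNA-binding p53 target, stood at 23.0, 24.8 and 24.4 CPM in Scr and at 21.0, 23.6 and 20.3 CPM in Mir. Mir replicate 2 lay within the range of Scr and the other Mir libraries lay below it, at a fold change of -0.15 ± 0.13 (edgeR adjusted p = 0.610). Aen, a nuclease of apoptosis, was at 0.04 ± 0.20. Sesn2, a stress-response gene, was at 0.36 ± 0.54, and its Mir libraries spread from 5.15 to 27.3 CPM, wider than the Scr libraries at 7.89 to 14.48 CPM.

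**Figure D2:**
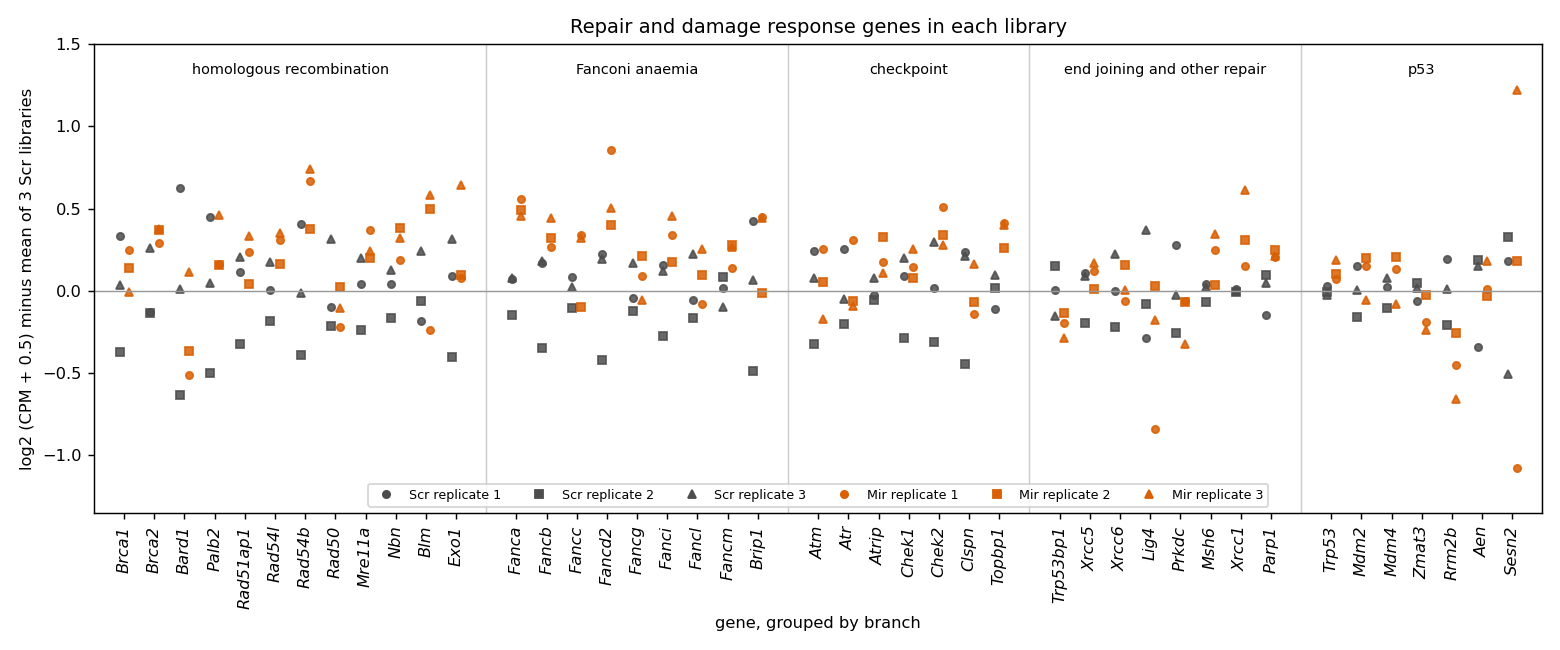
Each of the 43 genes in each of the 6 libraries, as log2 (CPM + 0.5) minus the mean of the 3 Scr libraries; grey marks Scr, orange marks Mir, and the marker shape gives the replicate. Scr replicate 2 (grey squares) is the lowest library for 30 of the 43 genes, most of them in the homologous recombination, Fanconi anaemia and checkpoint branches, and Sesn2 has the widest spread.

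The plot of each gene by library shows the spread behind these fold changes. To compare branches within a library, the log2 (CPM + 0.5) of each gene was set against its mean over Scr, and the median over the genes of a branch was used as its level. For the Fanconi anaemia genes the Scr libraries were at 0.08, -0.16 and 0.12 and the Mir libraries at 0.34, 0.21 and 0.44. Of the 5 branches, only this one had all Mir libraries above all Scr libraries in its median. The S phase, G2/M, other checkpoint and other end joining lists described below were separated in the same way. For S phase the highest Scr library was at 0.199 and the lowest Mir library at 0.205, and for G2/M they were at 0.296 and 0.304. The other recombination and other p53 lists overlapped. For homologous recombination the level was 0.07, -0.28 and 0.19 in Scr and 0.21, 0.16 and 0.34 in Mir, with Mir replicate 2 below Scr replicate 3. The checkpoint genes were at 0.09, -0.29 and 0.09 in Scr and at 0.25, 0.08 and 0.16 in Mir, with Mir replicate 2 below Scr replicates 1 and 3. End joining and other repair lay at 0.01, -0.07 and 0.04 in Scr and at 0.03, 0.03 and 0.09 in Mir, and the p53 branch at 0.03, -0.00 and 0.01 in Scr and at 0.01, 0.10 and -0.06 in Mir. Scr replicate 2 was the lowest library in the first 4 of these branches, but in the p53 branch it lay within 0.04 of the other Scr libraries.

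**Figure D3:**
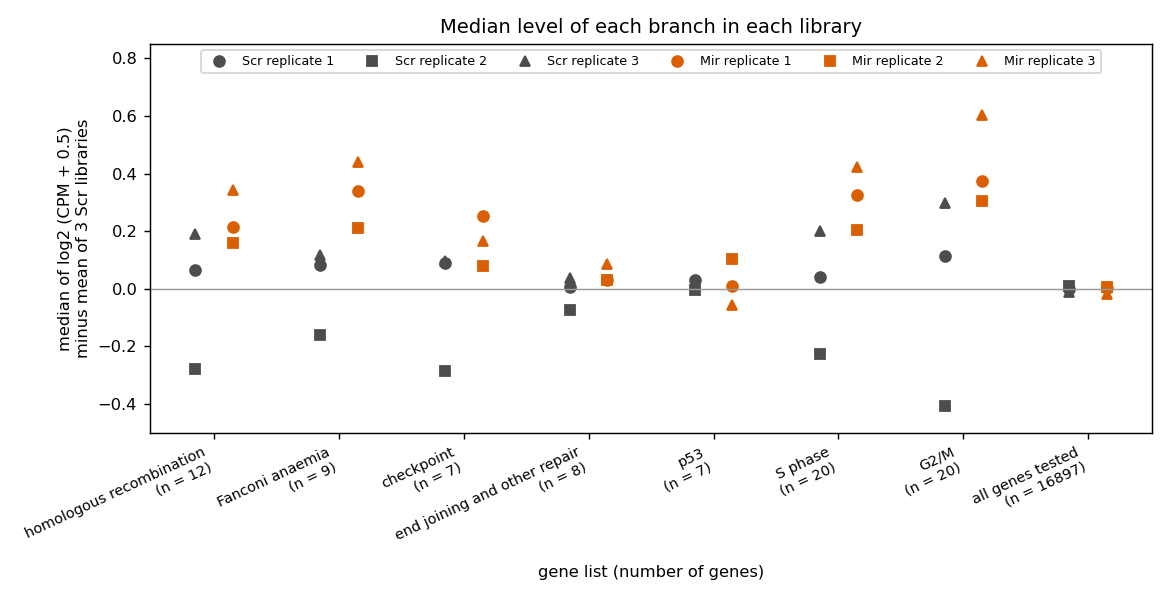
Median level of each branch, of S phase and G2/M genes and of all genes tested in each library, as log2 (CPM + 0.5) minus the mean of the 3 Scr libraries; grey marks Scr, orange marks Mir, and the shape gives the replicate. In the recombination, Fanconi anaemia and checkpoint branches and the S phase and G2/M genes Scr replicate 2 is lowest, while the p53 branch stays between -0.06 and 0.10.

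The difference between a branch and the p53 branch can be read within each library, which removes only what a library does equally to both. The low levels of Scr replicate 2 in the other branches were not shared by the p53 branch, so they remain in these differences. The Fanconi anaemia level minus the p53 level was 0.05, -0.16 and 0.11 in Scr and 0.33, 0.11 and 0.50 in Mir. Mir replicate 2 and Scr replicate 3 were about level, and the other Mir libraries lay above Scr. Homologous recombination minus p53 was 0.04, -0.28 and 0.18 in Scr and 0.20, 0.06 and 0.40 in Mir, and checkpoint minus p53 was 0.06, -0.28 and 0.08 in Scr and 0.24, -0.03 and 0.22 in Mir, both with overlapping groups.

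Genes of DNA replication and division were set beside the branches, because recombination and crosslink repair serve dividing cells. The 20 S phase genes all had a higher mean in Mir, where their median fold change was 0.31, and so did the 20 G2/M genes, whose median was 0.39. Without Scr replicate 2, 18 of the 20 S phase and 19 of the 20 G2/M genes did, at medians of 0.21 and 0.21, and with Mir replicate 3 left out as well 16 and 17 did, at 0.13 and 0.15. Their levels per library ran from -0.23 in Scr replicate 2 to 0.42 in Mir replicate 3 for S phase, and from -0.41 to 0.60 in the same libraries for G2/M. The Fanconi anaemia level minus the S phase level was 0.04, 0.06 and -0.08 in Scr and 0.01, 0.00 and 0.02 in Mir, so that the groups overlapped and their means differed by 0.00. Homologous recombination minus S phase was 0.03, -0.05 and -0.01 in Scr and -0.11, -0.04 and -0.08 in Mir. Checkpoint minus S phase was 0.05, -0.06 and -0.10 in Scr and -0.07, -0.13 and -0.26 in Mir. These levels share libraries and their part in the repair genes' values was not tested. Of the S phase genes with the smallest edgeR p, Rrm1, the main subunit of ribonucleotide reductase, was at 0.57 ± 0.11, and Mcm2, Fen1 and Mcm4 were at 0.44 ± 0.12, 0.47 ± 0.14 and 0.37 ± 0.11. The corresponding G2/M genes Tpx2, Kif20a, Aurkb and Plk1 were at 0.65 ± 0.18, 0.47 ± 0.14, 0.45 ± 0.15 and 0.44 ± 0.15. At an unadjusted p under 0.05 in edgeR, 9 S phase genes and 8 G2/M genes were higher in Mir, where 6.57% of all genes were, and 0 lower, where 7.93% were.

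**Figure D4:**
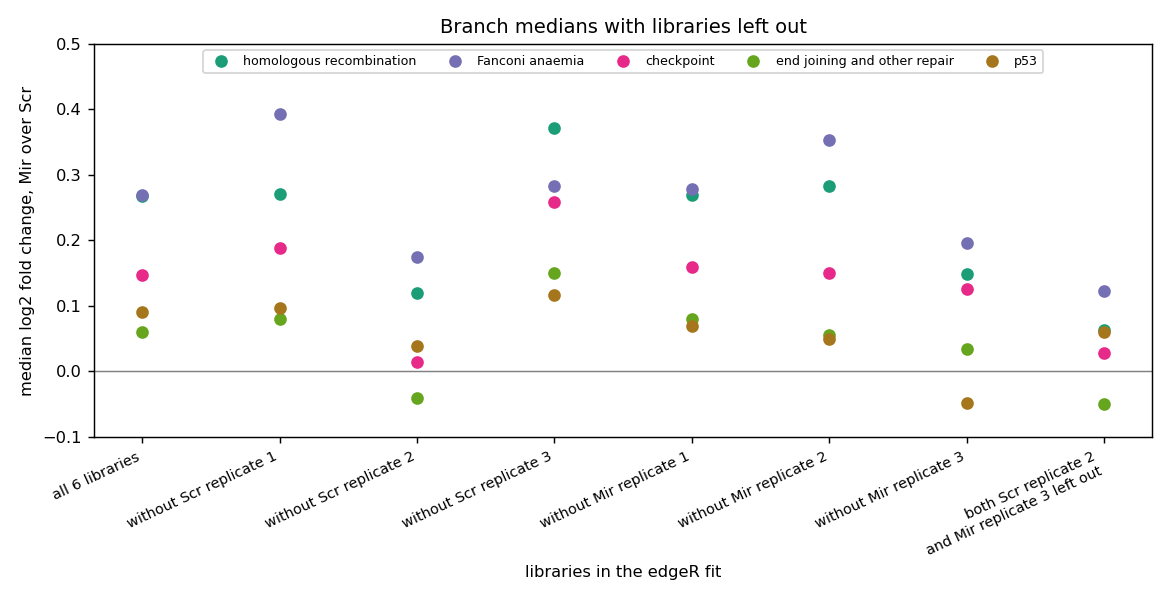
Median log2 fold change of each branch with all 6 libraries and with libraries left out, from edgeR fits over all genes; each point is the median over the genes of a branch. Without Scr replicate 2 the medians fall to between -0.04 and 0.17, and the Fanconi anaemia median stays the highest there and with both Scr replicate 2 and Mir replicate 3 left out.

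Leaving out the libraries that stood apart lowered the medians, as the plot of branch medians shows. Scr replicate 2 and Mir replicate 3 were picked as most often the lowest and the highest library for these same genes. A fall of the medians therefore follows in large part from that choice. Without Scr replicate 2, 30 of the 43 genes had a higher mean in Mir, at a median of 0.09 in place of 0.21. Homologous recombination stood at 0.12, Fanconi anaemia at 0.17, checkpoint at 0.01, end joining and other repair at -0.04 and p53 at 0.04. Without Mir replicate 3, 32 of 43 genes had a higher mean, at a median of 0.13, and the p53 median was -0.05. With both left out, 25 of 43 had a higher mean, at a median of 0.08. Among genes given by library above, the fold changes that shrank by over 1.5 times without Scr replicate 2 and stayed positive were those of Mre11a, at 0.15, Fancb, at 0.17, Fanci, at 0.19, Chek1, at 0.01, Chek2, at 0.22, and Mdm2, at 0.02. Without Mir replicate 3, those of Chek1, Msh6, Xrcc1 and Trp53 shrank as much, to 0.08, 0.13, 0.22 and 0.07. Fancd2 and Rad54b, each at 0.58 with all libraries, shrank by less than 1.5 times without Scr replicate 2, to 0.40 each. In log2 units these drops were larger than those of Mre11a, Fancb, Fanci, Chek1, Chek2 and Mdm2. Without Mir replicate 3, Fancd2 and Rad54b were at 0.61 and 0.48. Fanca, Topbp1 and Parp1 were at 0.43, 0.36 and 0.26 without Scr replicate 2 and at 0.51, 0.32 and 0.21 without Mir replicate 3. Gene by gene, the fold change was positive in all 15 fits for 6 of 12 homologous recombination genes, 7 of 9 Fanconi anaemia genes, 3 of 7 checkpoint genes, 3 of 8 end joining and other repair genes and 3 of 7 p53 genes. It was negative in all 15 for 3 of the 8 and 2 of the 7 in the last 2 branches. The exceptions among Fanconi anaemia genes were Fancl and Brip1. Because the fits reuse the same libraries, these counts of signs are a description and not independent support.

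Levels of different genes can be compared only per exon length, as mean CPM per kb of exon. The exons of all annotated transcripts of a gene were merged for this length. The highest of the 43 in Scr were Trp53 at 35.7 ± 0.710 (SD, n = 3), Mdm2 at 34.3 ± 3.66, Xrcc5 at 33.1 ± 3.83 and Parp1 at 30.7 ± 2.66, and neighbours in this order differed by less than their spread. Msh6 at 19.6 ± 0.797 and Nbn at 16.2 ± 1.68 came next. Near the low end stood the kinase Atr at 1.45 ± 0.243, Rrm2b at 1.10 ± 0.160 and Bard1 at 0.884 ± 0.414. The merged exons of Atr were the longest of the 43, at 23629 bases, beside a Scr mean of 34.3 CPM. Its place in this order therefore depends on that length. The Fanconi anaemia genes lay between 1.47 ± 0.100 for Fancc and 9.40 ± 1.34 for Fancl in Scr. Fancd2 and Fanca, with the largest fold changes of that branch, were at 3.26 ± 0.769 and 2.38 ± 0.212 in Scr and at 4.88 ± 0.851 and 3.38 ± 0.124 in Mir.

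**Figure D5:**
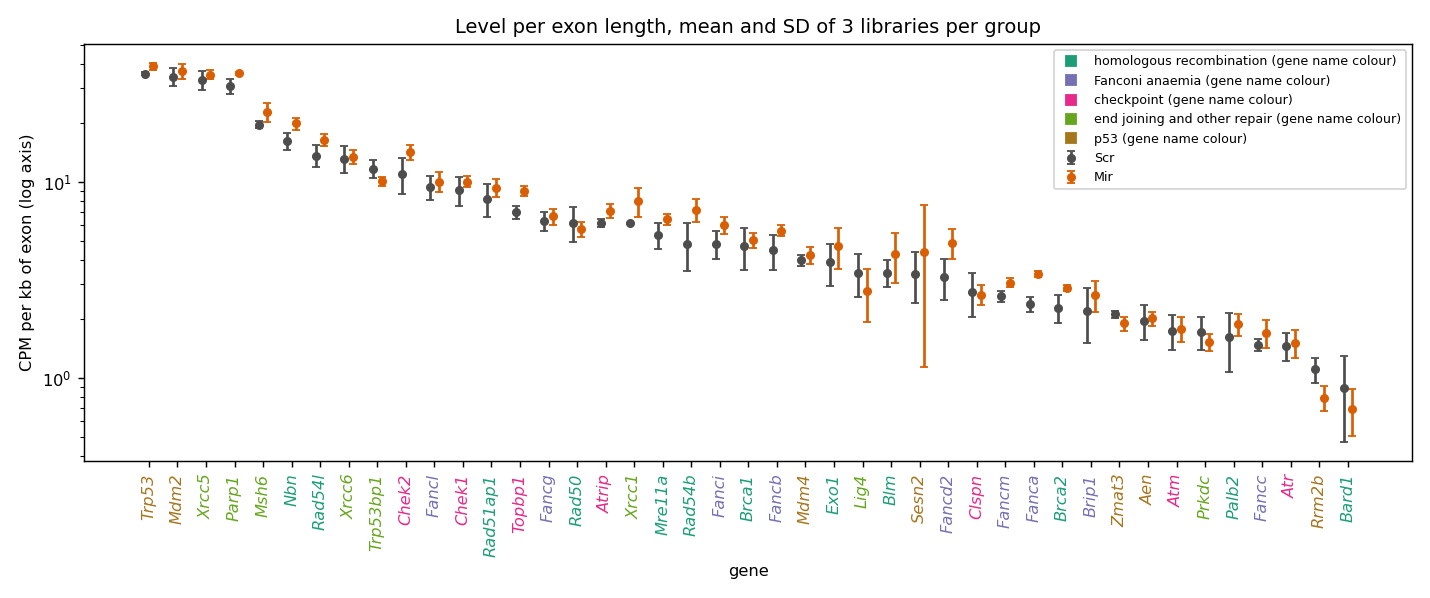
Mean CPM per kb of exon on a log axis for the 43 genes, ordered by the Scr mean; points are means and bars are SD of 3 libraries per group, grey for Scr and orange for Mir, and the colour of a gene name gives its branch. Trp53 and Mdm2 lead at 35.7 and 34.3 in Scr, and Bard1 is last at 0.884.

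In the plot of level per exon length, genes of the p53 branch stood at both ends, with Trp53 first and Rrm2b next to last.

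Other genes of the same routes, in 4 further lists, were read from the same fit. Among 26 other recombination and crosslink repair genes, 18 had a higher mean in Mir and 8 a lower one, at a median of 0.12, and 2 reached an unadjusted p under 0.05 in edgeR, both higher, where 6.57% of all genes were. The median was 0.04 without Scr replicate 2, and with Mir replicate 3 left out as well it was 0.01, with 14 of 26 higher. The 2 genes at that unadjusted p were Dna2, a resection nuclease, at 0.68 ± 0.17 (edgeR adjusted p = 0.212, DESeq2 adjusted p = 0.023), and Rbbp8, the cofactor of Mre11a, at 0.37 ± 0.12. Wdr48 and Recql followed at 0.19 ± 0.09 and 0.26 ± 0.13. Dna2 stood at 19.2, 13.0 and 16.3 CPM in Scr and at 26.0, 26.2 and 25.3 CPM in Mir, with the groups well apart.

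Of 23 other checkpoint and break signalling genes, 19 were higher and 4 lower on average, at a median of 0.23, and 7 reached that unadjusted p, all higher, against the same 6.57% of all genes. The median was 0.13 without Scr replicate 2, with 16 of 23 higher. Wee1, the kinase that holds back entry into mitosis, was at 0.50 ± 0.13 (edgeR adjusted p = 0.214, DESeq2 adjusted p = 0.0403), and it stood at 54.2, 41.4 and 57.3 CPM in Scr and at 71.9, 69.6 and 74.8 CPM in Mir. Rnf168, a ubiquitin ligase of break signalling, was at 0.56 ± 0.16, Rad1, part of the clamp that works with Topbp1, at 0.31 ± 0.09, and Rpa1, which coats single strands, at 0.32 ± 0.11. The Mir libraries all lay above Scr for 11 of the 23 genes, where 9.72% of all genes did. Wee1, Rnf168, Rad1 and Rpa1, named for their small p, were among them. Of their partners, Hus1 and Rad9a of the clamp were at 0.28 ± 0.20 and -0.00 ± 0.10. Rpa2 and Rpa3 were at 0.33 ± 0.14 and -0.01 ± 0.13. The 39 other end joining and excision repair genes had 31 higher and 8 lower means, at a median of 0.09, with 5 at that unadjusted p, all higher, again against 6.57%. Lig1, the ligase of replication, was at 0.41 ± 0.12 and Polq, a polymerase of alternative end joining, at 0.57 ± 0.18.

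Other p53 targets did not lean to one side. Of 30 listed, 24 passed the filter, 11 of them with a higher and 13 with a lower mean in Mir, at a median of -0.03, which was 0.02 without Scr replicate 2. At an unadjusted p under 0.05 in edgeR, 3 were higher and 1 lower, where 6.57% and 7.93% of all genes were. Btg2, an inhibitor of proliferation that also marks cortical progenitors making neurons, stood at 106, 81.3 and 83.4 CPM in Scr and at 150, 185 and 119 CPM in Mir, with no overlap, at 0.75 ± 0.18 (edgeR adjusted p = 0.212, DESeq2 adjusted p = 0.00575). Ppm1d, a phosphatase that switches the damage signal off, was at 0.39 ± 0.11 and Psrc1 at 0.48 ± 0.14. Pmaip1, which promotes apoptosis, was the gene that was lower, at 1.17, 4.78 and 2.89 CPM in Scr and 0.254, 0.319 and 1.29 CPM in Mir, so that Mir replicate 3 lay just above Scr replicate 1.

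The promoters of the genes were searched for the letters of known cell cycle elements, since E2F factors are known to drive many replication and repair genes. RefSeq promoters (GRCm38.p6, 250 bases before to 50 after the start) were at hand for 35 of the 43 genes, 39 promoters in all. The E2F words TTTCCCGC, TTTCGCGC, TTTGCCGC and TTTGGCGC, searched on both strands, were found in 8 of the 39 (20.5%), against 2.27% of all 32851 promoters in the table and 3.82% of the 14020 promoters of genes tested. By gene they were in 2 of 8 homologous recombination, 1 of 8 Fanconi anaemia, 3 of 7 checkpoint, 2 of 7 end joining and other repair and 0 of 5 p53 genes with a promoter. The genes were Bard1, Brca2, Fancg, Chek2, Clspn, Topbp1, Msh6 and Xrcc6. For Brca2, Chek2 and Topbp1, with fold changes of 0.34 to 0.36, and for Bard1, which holds a word but has a negative fold change, the surroundings are printed on the strand of the gene with the E2F word in capitals.
Brca2, chr5:150522433-150522480, plus strand: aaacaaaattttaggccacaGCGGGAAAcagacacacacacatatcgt
Chek2, chr5:110839811-110839858, plus strand: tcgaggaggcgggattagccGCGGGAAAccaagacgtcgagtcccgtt
Topbp1, chr9:103305178-103305225, plus strand: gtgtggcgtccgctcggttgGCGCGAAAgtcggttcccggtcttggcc
Bard1, chr1:71103154-71103201, minus strand: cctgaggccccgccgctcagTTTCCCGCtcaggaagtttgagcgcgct

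Genes with and without a word both had positive medians. The 8 with an E2F word had a median fold change of 0.15, with 6 higher and 2 lower means, and the 27 with a promoter but no word had a median of 0.21, with 25 higher and 2 lower means. The box CCAAT was in 64.1% of the 39 promoters, against 37.4% of all promoters and 37.7% of those of genes tested, and the words TTTGAA and TTCGAA, searched together on both strands, were in 7.69%, or 3 of the 39, against 19.2% and 13.9%. A match of letters is a description of the promoter and not a bound site.

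Matches to the seed of the hairpin were found in 6 of the 43 genes, a share near that of all genes tested. The strand after the loop of the miR-3607 hairpin oligonucleotide, without its last run of T, is printed with bases 2 to 8, the seed, in capitals, together with the strongest matches found in the 3′ UTRs of the 43 genes (GENCODE M21, GRCm38), where capitals mark the match. Which strand of the hairpin is loaded is not given in the sources used here.
hairpin strand: gCATGTGAtgaagcaaatcag
Rad51ap1, first match: cctttaatgggTCACATGAaggaccat
Rad50: tagccctgctgTCACATGAatccatgc
Zmat3, first match: tcctttttcctTCACATGtgtaagacc

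The words TCACATG or CACATGA were in the 3′ UTR of 6 of 43 genes (14.0%), against 2208 of 12721 genes tested that have a 3′ UTR (17.4%), and the median UTR was shorter, at 579 against 1023 bases. The other holders were Fancm, Brip1 and Lig4. The 6 genes with a match had a median fold change of 0.04 (-0.04 without Scr replicate 2), with 3 higher and 3 lower means. The other 37 had a median of 0.21 (0.13 without Scr replicate 2), with 32 higher and 5 lower. The difference between these medians was not tested, and the same split was not made over all genes. Rad50, Zmat3 and Lig4 were the holders with negative fold changes, at -0.12, -0.15 and -0.32. None of the 6 reached an unadjusted p under 0.05 in edgeR, where 6.57% of all genes were higher and 7.93% lower.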

How the data were processed

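Whole-number read counts per gene, without normalization, were deposited by the authors for each of the 6 libraries. HISAT2 2.1.0, HTSeq 0.11.0, DESeq2 1.18.1 and the build mm10 (GRCm38) are listed per the submitters' processing notes. Whether counting used strand, which annotation it used and how it treated multi-mapped reads is not given in the sources used here. Genes that share exon bases with others are therefore uncertain. Per the labels' protocols, the SMART-seq v4 kit, which does not mark strand, was used on RNA of integrity above 9.5, read as 50 bp single reads. Summary lines that name no gene were left out: 28.8 to 31.6% of reads were in no feature and 39.3 to 44.4% were not uniquely aligned. Amplified reads are not independent molecules.

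The counts were tested with edgeR 4.0.16 in R 4.3.3 (quasi-likelihood F test, two-sided, group as the only term, TMM, filterByExpr, Benjamini-Hochberg over 16897 genes, threshold 0.05). DESeq2 1.42.0 and limma-voom (limma 3.58.1) were alternatives, and 3612 genes without an adjusted p in DESeq2 stayed uncalled. The scripts were tested on simulated data. No library repeated another of its group (chi-square per degree of freedom 8.23 to 28.2). CPM were scaled by the TMM factors. Exon lengths, overlaps and 3′ UTRs come from GENCODE M21, and promoters from RefSeq.

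The 43 genes, the branches, the further lists (4 of the pathway, S phase, G2/M) and the markers of 8 cell types were chosen with earlier results of these data known. Every gene of the 43 is named. Values per library were given for Brca1, Brca2, Fancd2, Fanci, Atm, Atr, Chek1, Trp53, Mdm2 and Parp1, for the 3 genes of each branch with the smallest edgeR p, and for those whose groups do not overlap, and of each further list the 4 genes with the smallest edgeR p are named, apart from some that are not reported here. The inhibitory neuron marker Dlx6os1 was not matched. Alternatives were a filter on total counts, no filter, other scalings and tools, a replicate block, a pseudocount of 2 and libraries left out.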

Additional observations from a re-analysis of the deposited data

How the results depend on the processing

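Between pools, edgeR put the biological coefficient of variation at 23.6%, and the median standard error of the 43 fold changes was 0.15, beside their median of 0.21. The count of genes called over the whole table, 1, was 31 with no filter, 580 with DESeq2, 0 with limma-voom, 29 with both Scr replicate 2 and Mir replicate 3 left out, and 0 to 2 with a single library left out. Of the repair genes 0 were called, except 2 with DESeq2. The count of repair genes at an unadjusted p under 0.05, 9, was 5 with both libraries left out and 3 to 10 with a single one left out. With both left out, the homologous recombination median was 0.064, the Fanconi anaemia median 0.12 and the end joining and other repair median -0.050. With a single library left out, the last of these ran from -0.041 to 0.15 and the p53 median from -0.048 to 0.12. Of the 23 genes given by library, the fold changes that turned were those of Brca1 (-0.064 without Scr replicate 2, with a highest value of 0.28 when a single library was left out), Atm (-0.11 without Scr replicate 2, -0.073 without Mir replicate 1, -0.0070 with both left out, highest 0.16), Atr (-0.045 without Scr replicate 2, -0.086 without Mir replicate 1, highest 0.19) and Chek1 (-0.035 with both left out). Of all 43, 16 changed sign in at least 1 of the 15 fits, the others being Bard1, Palb2, Rad51ap1, Rad50, Exo1, Fancl, Brip1, Clspn, Xrcc5, Xrcc6, Aen and Sesn2. The cause was not tested.

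Replicate numbers are shared by the groups, and the main fit did not treat them as pairs. Deviations from the group means correlated at 0.22, -0.15 and -0.10 for the same numbers. Scr replicate 1 and Mir replicate 1 correlated best with each other, but not every library correlated best with its own number. With 3 libraries per group, these correlations cannot exclude a pairing. With a replicate block in edgeR, 0 genes were called over the whole table, 0 repair genes were called and 10 repair genes had an unadjusted p under 0.05, 9 higher and 1 lower.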

Other observations

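Of the 30 other p53 targets, Fas, Tnfrsf10b, Gdf15, Ptprv, Cd80 and Ano3 did not pass the filter on low counts. Their raw counts were at most 17 in a library except for Ano3, with 40 in Scr replicate 2. Tnfrsf10b, a death receptor, had 0, 3 and 0 reads in the Scr libraries, in replicate order, against 10, 5 and 17 in the Mir libraries. Fas, another death receptor, had 0, 3 and 1 against 3, 8 and 5. Gdf15 had 6, 13 and 2 reads in Scr against 1, 2 and 11 in Mir. Cd80 had 3, 4 and 6 against 3, 2 and 1, and Ano3 had 2, 40 and 6 against 16, 7 and 5. For Ptprv the only read was 1 in Scr replicate 3. The 6 genes were not tested.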
